A study of Mus musculus with 2 samples.

Results

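The genes described here are 42 mouse genes of the TGF-β and BMP signalling pathways, chosen by symbol from the 23183 genes with a deposited expression value. They encode ligands, latency proteins, receptors, SMADs, inhibitors of the pathway and the ID proteins, and all 42 symbols were found in the data. The values come from RNA-seq of *K-Ras*-activated mouse lung cancer cells in 2 libraries. KPR- is an immortalized cell line from a lung cancer of a KPRL/F-TAM(-) mouse (carrying Flp ERT2, the Tomato* tracer, *Runx3* flox/FSF, a *K-Ras* LSL-G12D/+ allele and *p53* flox/flox), in which inhaled adenovirus with CMV promoter-driven Cre had switched on oncogenic *K-Ras* and deleted *p53* and the floxed *Runx3* allele. A *Frt-Stop-Frt* cassette silences the other *Runx3* allele until 4-hydroxytamoxifen (4-OHT) activates the Flp recombinase, which removes the cassette and gives KPRrestored cells. The sample records give KPR- as RUNX3 -/- with a title of 0 h and KPRrestored as RUNX3 -/+ with a title of 16 h, and list 1 μM 4-OHT for both. Active *K-Ras* and the loss of *p53* are common to both, and the records do not say how many lines or clones were sequenced.

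Ligands of the TGF-β family bring a type II and a type I receptor kinase together, and the type I receptor phosphorylates SMAD proteins. SMAD2 and SMAD3 carry TGF-β and activin signals, SMAD1, SMAD5 and SMAD9 carry BMP signals, and both kinds enter the nucleus with SMAD4. RUNX proteins bind SMADs and act with them on target genes, TGF-β restrains the growth of many epithelial cells, and ID genes are classic targets of BMP signals.

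Each condition was sequenced as 1 library, so no difference between them has a replicate check and no p-value was computed. Expression is given as FPKM, fragments scaled to transcript length and to depth, which allows levels of different genes to be compared. The spacing of the lowest FPKM values, at which single fragments can be told apart, put the depth of KPR- near 21.8 M fragments and that of KPRrestored near 22.4 M. The 95% counting intervals below are exact Clopper-Pearson limits on fragments estimated at this depth and cover counting error only. The targeted gene *Runx3* had 0.348 FPKM in KPR- and 0.349 FPKM in KPRrestored, which does not separate the libraries, so higher and lower refer below to the library labelled KPRrestored as compared with the library labelled KPR-. The epithelial markers *Epcam*, *Cdh1*, *Krt8*, *Krt18* and *Krt19* lay between 91.6 and 1930 FPKM in both libraries, whereas *Sftpc*, of alveolar type II cells, was listed at 0 and *Nkx2-1*, of lung epithelium, had 0.0444 and 0.0216 FPKM. Of the immune markers, *Cd68* had 3.08 and 6.78 FPKM and *Csf1r* had 2.68 and 1.19 FPKM, while *Cd3e* and *Adgre1* were listed at 0 in both.

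A gene was counted as higher or lower where log2(FPKM + 0.005) differed by 0.5 or more. Of the 42 genes, 3 were higher in the library labelled KPRrestored (7.14%), where 13.8% of all listed genes were, and 8 were lower (19.0%), where 12.9% of all listed genes were. The higher genes were *Smad1*, *Tgif1* and *Eng*, and the lower genes were *Tgfb2*, *Bmp2*, *Bmp7*, *Ltbp1*, *Ltbp2*, *Tgfbr3*, *Bambi* and *Id2*. A mean FPKM of at least 1 was reached by 37 of the 42 genes. *Bmp6* reached it only through the library labelled KPRrestored and was neither higher nor lower by the threshold. Of these 37, 2 were higher (5.41%, against 12.1% of the 11231 genes at this level) and 6 were lower (16.2%, against 9.29%). The median log2 difference of the 37 was -0.17, and that of the 11231 genes was 0.0086. A difference below 0 was found for 23 of the 37 (62.2%) and for 49.0% of the 11231. The counting interval lay above 0 for 9 of the 42 genes and below 0 for 20. It lay above 0 for 25.3% and below 0 for 24.8% of the 16255 genes with estimated fragments. For the 11128 of these at a mean FPKM of 1 or more, the shares were 34.2% and 33.0%. The 42 are not a like set for the latter, since 5 of them lay under this mean, among them *Bambi*, 1 of the 20. For 12 of the 42 the interval held 0, and *Inhbb* was listed at 0 in both libraries. In RNA from many cells, fewer cells that express a gene and less RNA per cell cannot be told apart.

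**Figure D1:**
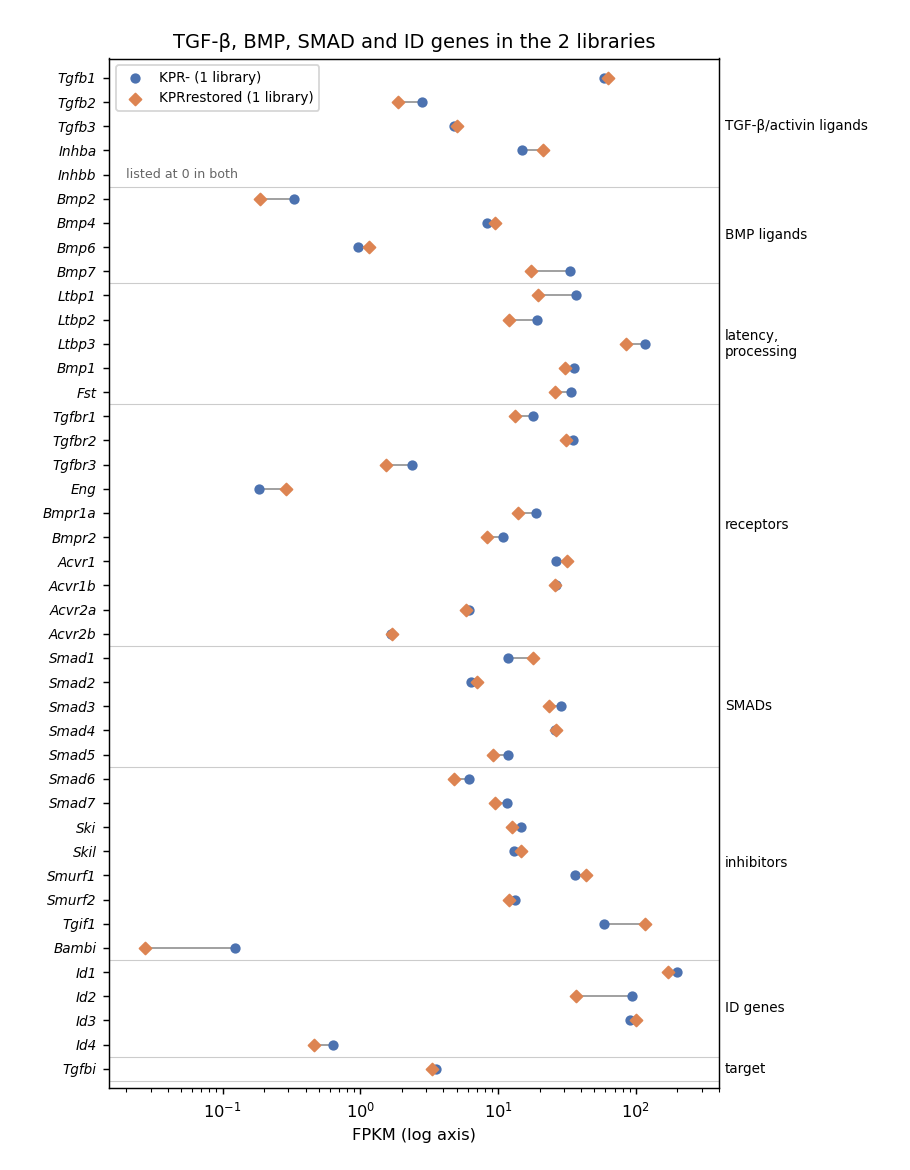
FPKM of each of the 42 genes (log axis) in the library labelled KPR- (circles) and the library labelled KPRrestored (diamonds), grouped by role; a line joins the 2 values of a gene. *Id2*, *Bmp7* and *Ltbp1* lay visibly lower and *Tgif1* visibly higher in KPRrestored, and *Id1* at 199 and 171 FPKM had the highest level.

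**Figure D2:**
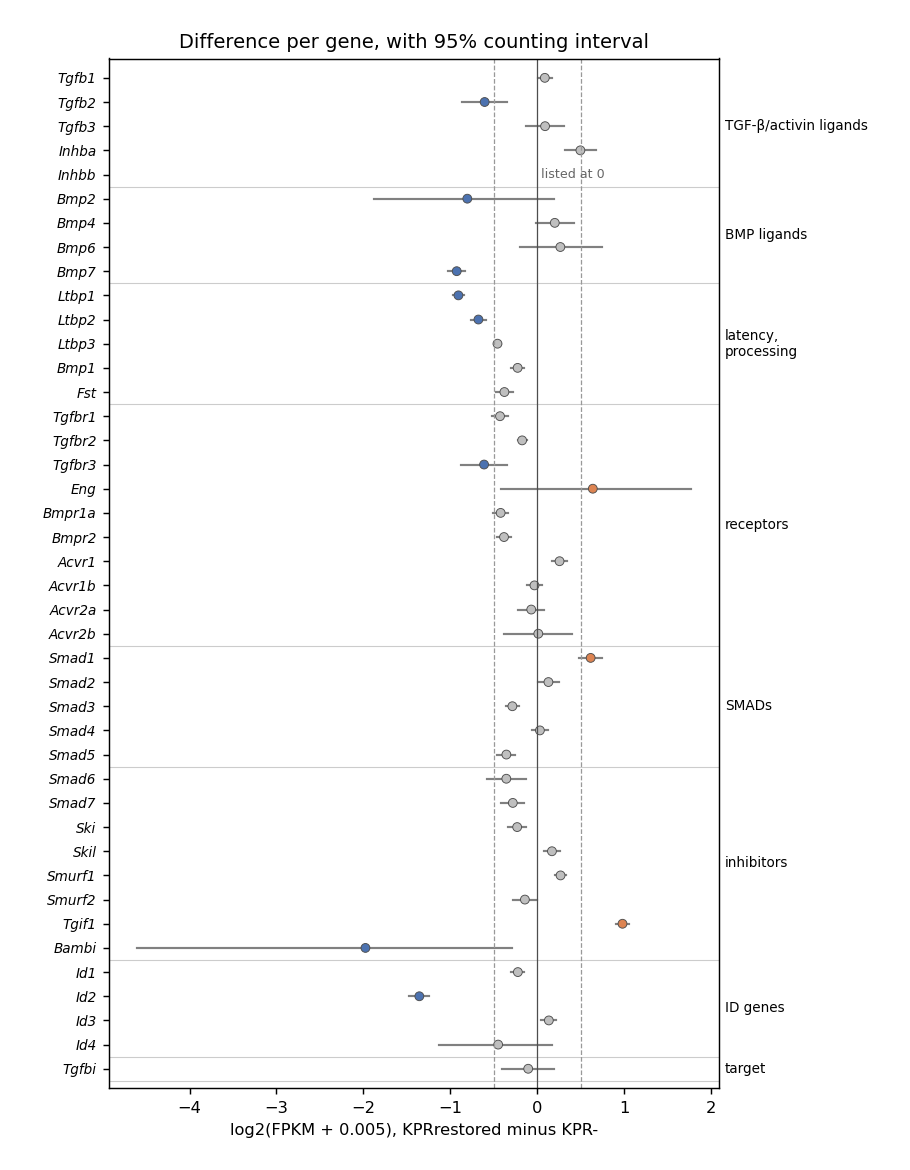
Difference of log2(FPKM + 0.005), KPRrestored minus KPR-, for each gene, with the 95% counting interval as a bar; dashed lines mark 0.5 either way, orange points are higher and blue points lower by at least that much. *Id2* at -1.36 and *Tgif1* at 0.98 stand clear of 0 with short bars, whereas *Bambi*, *Bmp2* and *Eng* rest on few fragments and have long ones.

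Among the TGF-β and activin ligands, the transcript levels of the main TGF-β ligand differed little. *Tgfb1*, which encodes TGF-β1, had 58.9 FPKM in KPR- and 62.6 FPKM in KPRrestored, which differ by 0.09 on the log2 scale (counting interval 0.01 to 0.17). *Tgfb3* had 4.74 and 5.04 FPKM, also a log2 difference of 0.09. *Tgfb2* was lower, with 2.82 FPKM in KPR- and 1.86 FPKM in KPRrestored, a log2 difference of -0.60 with an interval of -0.87 to -0.34. *Tgfb1* thus made up 88.6% of the summed FPKM of the 3 TGF-β ligands in KPR- and 90.1% in KPRrestored. *Inhba*, which encodes the βA subunit of activin A, had 14.9 and 21.1 FPKM and a log2 difference of 0.4977, just under 0.5, with an interval of 0.32 to 0.68. *Inhbb*, the gene of the βB subunit, was listed at 0 in both libraries.

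*Bmp7* was the BMP ligand with the highest level in both libraries and the one that differed most among those with more than 100 estimated fragments. It lies on chromosome 2 of GRCm38 from 172868012 to 172940321 (minus strand) and had 33.0 FPKM in KPR- and 17.4 FPKM in KPRrestored. With about 2487 and 1345 fragments, the log2 difference of -0.93 had limits of -1.02 and -0.83. *Bmp4* had 8.24 and 9.49 FPKM, a log2 difference of 0.20 whose interval of -0.01 to 0.42 held 0. *Bmp7* therefore went from 77.6% to 61.6% of the summed FPKM of the 4 BMP ligands, a share that no scaling of a library changes. *Bmp6* had 0.955 and 1.15 FPKM, and *Bmp2* 0.327 and 0.185 FPKM. The *Bmp2* difference of -0.80 rests on about 24 and 14 fragments, with an interval of -1.88 to 0.19.

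All 5 genes of latency, processing and extracellular inhibition had lower FPKM in the library labelled KPRrestored, with a median log2 difference of -0.46. Of the 11231 genes at a mean FPKM of 1 or more, 49.0% were below 0. So were 5 of the 11 other ligands and extracellular regulators at this level, which are described further on. LTBP1 and LTBP3 bind latent TGF-β and hold it in the extracellular matrix, whereas LTBP2 is a matrix protein of the same family that does not bind it. *Ltbp1*, on the plus strand of chromosome 17 between 75005568 and 75392512, reached 36.8 FPKM in KPR- and 19.6 FPKM in KPRrestored, a log2 difference of -0.91 with an interval of -0.97 to -0.84. *Ltbp2* lies on chromosome 12 from 84783212 to 84876532 (minus strand), had 19.1 and 12.0 FPKM, and differed by -0.68 on the log2 scale with an interval of -0.77 to -0.59. *Ltbp3* had the highest level of these genes, at 116 and 84.8 FPKM, and its log2 difference of -0.46 did not reach the threshold. The summed FPKM of the 3 genes went from 172 in KPR- to 116 in KPRrestored, so that the order *Ltbp3*, *Ltbp1*, *Ltbp2* was the same in both. *Ltbp1* went from 0.625 to 0.314 times the FPKM of *Tgfb1*, the ligand it binds. *Ltbp4*, a gene of this family outside the 42, had 4.52 FPKM in KPR- and 4.96 FPKM in KPRrestored. Its log2 difference of 0.13 had an interval of -0.04 to 0.31, which held 0. *Ltbp1*, *Ltbp2* and *Ltbp3* have long transcripts, and differences of long genes shifted below 0, as described further on. *Bmp1*, a protease that processes procollagens and latent complexes, had 35.7 and 30.5 FPKM. *Fst*, which encodes the activin antagonist follistatin, had 33.5 and 25.8 FPKM, a log2 difference of -0.38 with an interval of -0.48 to -0.28.

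*Ltbp1* is also the only gene of the set whose promoter window, in the RefSeq table for GRCm38.p6, held the RUNX core letters TGTGGT on either strand. These windows run from 250 bases before to 50 bases after a transcript start and were at hand for 30 of the 42 genes, among them 38 starts. In all, 16.8% of the 32851 windows and 18.9% of the 27025 genes had the letters. *Ltbp1* has 2 such starts, and the match lay at the inner one, whose 250 upstream bases on the plus strand at chr17:75178531-75178780 are shown because of it. Capitals mark TGTGGT at 71 and 33 bases before the start, and GTCTG, an orientation of the SMAD box, at 148 and 97 bases before it.
Ltbp1: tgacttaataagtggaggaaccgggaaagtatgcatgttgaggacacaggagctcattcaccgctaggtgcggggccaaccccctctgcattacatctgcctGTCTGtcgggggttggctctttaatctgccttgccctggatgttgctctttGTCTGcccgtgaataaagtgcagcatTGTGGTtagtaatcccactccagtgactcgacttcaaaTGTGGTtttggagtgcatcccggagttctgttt
With 1 FPKM value for the gene, transcripts from the 2 starts cannot be told apart, and a match of letters does not show that a factor binds there.

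Of the 10 receptor and co-receptor genes, 7 had a difference below 0 and 3 above it. At a mean FPKM of 1 or more, 7 of 9 were below 0 (77.8%), where 49.0% of the 11231 genes at this level were. With the shift by transcript length described further on removed, 5 of the 10 were below 0 and 5 above, since *Tgfbr2*, *Acvr1b*, *Acvr2a* and *Acvr2b* changed sign. The TGF-β receptors *Tgfbr1* (type I) and *Tgfbr2* (type II) differed by -0.43 and -0.17 on the log2 scale. *Tgfbr1* went from 17.9 to 13.3 FPKM and *Tgfbr2* from 34.9 to 30.9 FPKM. *Tgfbr3*, which encodes the co-receptor betaglycan, had 2.36 and 1.54 FPKM and was lower by the threshold, with a log2 difference of -0.61 and an interval of -0.88 to -0.35. Among the BMP receptors, *Bmpr1a* (type I) had 18.7 and 14.0 FPKM, a log2 difference of -0.42, and *Bmpr2* (type II) had 10.8 and 8.27 FPKM, a log2 difference of -0.38. Their intervals of -0.51 to -0.33 and -0.46 to -0.30 stayed below 0. *Acvr1*, the gene of the type I receptor ALK2, went the other way, with 26.2 and 31.4 FPKM and a log2 difference of 0.26 with an interval of 0.17 to 0.35. The activin receptors *Acvr1b*, *Acvr2a* and *Acvr2b* had log2 differences of -0.03, -0.07 and 0.01, all with intervals that held 0. *Eng*, which encodes the endothelial co-receptor endoglin, had 0.184 and 0.290 FPKM. Its log2 difference of 0.64 rests on about 13 and 21 fragments, with an interval of -0.41 to 1.77. The 6 endothelial markers summed to 1.17 FPKM in KPR- and 2.22 FPKM in KPRrestored, most of it *Kdr* at 1.10 and 2.05 FPKM. *Cdh5* had 0 and 0.141 FPKM, about 0 and 12 fragments. *Pecam1* had 0.0601 and 0.0292 FPKM, *Tie1* had 0.0125 and 0 FPKM, and *Tek* and *Emcn* were listed at 0 in both. The part of these markers in the *Eng* value was not tested.

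Of the SMADs that carry BMP signals, *Smad1* was higher and *Smad5* and *Smad9* were lower. *Smad9*, which is not among the 42 genes, had 0.504 FPKM in KPR- and 0.214 FPKM in KPRrestored. Its log2 difference of -1.21 rests on about 57 and 25 fragments, with an interval of -1.97 to -0.53. *Smad1* lies on chromosome 8 from 79338395 to 79399518 (minus strand) and had 11.8 FPKM in KPR- and 18.0 FPKM in KPRrestored. The log2 difference was 0.62 (counting interval 0.48 to 0.75). *Smad5* had 11.8 FPKM in KPR- as well, but 9.23 FPKM in KPRrestored, a log2 difference of -0.35 with an interval of -0.46 to -0.25. The ratio of *Smad1* to *Smad5* FPKM, which is free of library scaling but not of transcript length, went from 0.997 to 1.95. Of the SMADs for TGF-β and activin, *Smad3* had 28.6 and 23.5 FPKM, a log2 difference of -0.29, and *Smad2* had 6.36 and 6.96 FPKM, a log2 difference of 0.13. *Smad3* was thus above *Smad2* in both libraries, by 4.50 times in KPR- and 3.38 times in KPRrestored. *Smad4*, the common partner, had 25.7 and 26.3 FPKM, a log2 difference of 0.03 with an interval of -0.06 to 0.13.

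The promoter window of *Smad1* held none of the 3 motifs searched, which were the RUNX core, the SMAD box and the BMP SMAD element GGCGCC (the same letters on both strands). Its 250 upstream bases on the minus strand at chr8:79399429-79399678 are shown for comparison with those of *Ltbp1*. They come before the RefSeq start used and lie partly inside the limits of the gene.
Smad1: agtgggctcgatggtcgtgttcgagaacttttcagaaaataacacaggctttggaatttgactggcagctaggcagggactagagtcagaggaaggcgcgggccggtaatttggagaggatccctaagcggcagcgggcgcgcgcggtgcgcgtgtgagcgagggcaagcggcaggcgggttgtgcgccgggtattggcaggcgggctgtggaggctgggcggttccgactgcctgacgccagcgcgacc
No match says only that these letters are absent from this window.

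Among the inhibitors of the pathway, *Tgif1* was the gene that differed most among those with more than 100 fragments. *Tgif1* encodes a homeodomain corepressor that binds SMAD2 and SMAD3. It lies on chromosome 17 from 70844205 to 70853546 (minus strand) and had 59.0 FPKM in KPR- and 117 FPKM in KPRrestored. The 1.98-fold higher value is a log2 difference of 0.98 with an interval of 0.90 to 1.06. The other SMAD corepressors differed by less than the threshold. *Ski* had 14.7 and 12.5 FPKM and *Skil*, which is also a TGF-β target gene, had 13.0 and 14.6 FPKM. The FPKM of *Tgif1* went from 4.54 to 7.97 times that of *Skil*. The inhibitory SMADs, feedback genes that TGF-β and BMP signals switch on, had small negative differences. *Smad6* had 6.11 and 4.77 FPKM, a log2 difference of -0.35, and *Smad7* had 11.6 and 9.52 FPKM, a log2 difference of -0.28. Of the ubiquitin ligases that act on SMADs and receptors, *Smurf1* had 36.1 and 43.5 FPKM, a log2 difference of 0.27, and *Smurf2* had 13.2 and 12.0 FPKM, a log2 difference of -0.14. *Bambi*, which encodes a decoy receptor, was near the detection limit at 0.123 and 0.0275 FPKM, about 13 and 3 fragments, with a log2 difference of -1.98 and an interval of -4.61 to -0.29.

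The ID genes encode helix-loop-helix proteins without a DNA-binding region, which hold back basic helix-loop-helix factors. *Id2* had the most negative difference of all 37 genes that reached a mean FPKM of 1. It lies on chromosome 12 from 25093799 to 25097140 (minus strand) and had 93.6 FPKM in KPR- and 36.6 FPKM in KPRrestored. The value in KPR- was 2.56 times that in KPRrestored, a log2 difference of -1.36 with an interval of -1.47 to -1.24. *Id1* had 199 and 171 FPKM, a log2 difference of -0.22 with an interval of -0.30 to -0.15, and *Id3* had 90.5 and 99.3 FPKM, a log2 difference of 0.13 with an interval of 0.05 to 0.22. *Id4* stayed at 0.629 and 0.460 FPKM, with an interval of -1.13 to 0.17. *Id2* and *Id3* were thus nearly level in KPR-, at a ratio of 1.03, and far apart in KPRrestored, at a ratio of 0.368. The share of *Id2* in the summed FPKM of the 4 genes went from 24.4% to 11.9%, that of *Id1* from 51.9% to 55.6% and that of *Id3* from 23.6% to 32.4%.

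**Figure D3:**
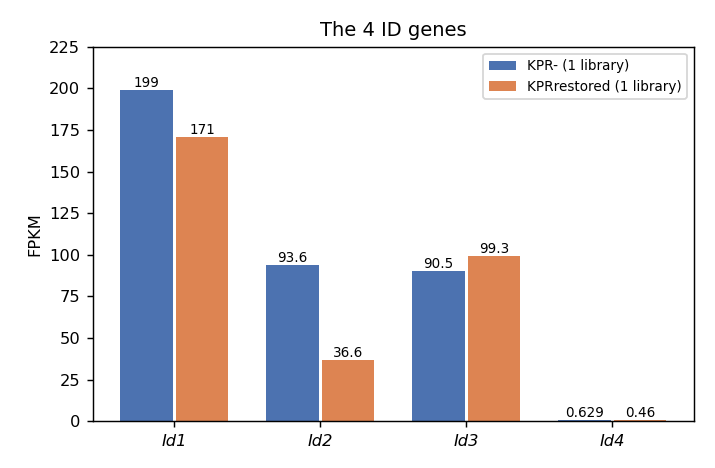
FPKM of the 4 ID genes (bars from 0) in the library labelled KPR- and the library labelled KPRrestored, with 1 library per bar and the value printed above it. *Id2* went from 93.6 to 36.6 FPKM, while *Id1* and *Id3* had 171 and 99.3 FPKM in KPRrestored and *Id4* stayed under 1 FPKM.

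The upstream sequences of *Id2* and *Id3* are shown because these 2 ID genes had nearly the same FPKM in KPR- but not in KPRrestored. They lie on the minus strand at chr12:25096093-25096342 and the plus strand at chr4:136143572-136143821. Both stretches come before the RefSeq start used but lie inside the limits of the gene, so they are not upstream of the whole gene. Capitals mark the BMP SMAD element GGCGCC, found 231 bases before the *Id2* start, and the SMAD box, read as CAGAC at 167 bases before the *Id3* start and on the opposite strand, as GTCTG, at 68 bases before it.
Id2: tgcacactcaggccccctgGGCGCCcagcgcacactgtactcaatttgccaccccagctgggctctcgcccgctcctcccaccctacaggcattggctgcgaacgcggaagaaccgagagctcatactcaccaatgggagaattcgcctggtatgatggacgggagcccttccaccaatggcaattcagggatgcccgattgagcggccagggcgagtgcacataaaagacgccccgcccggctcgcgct
Id3: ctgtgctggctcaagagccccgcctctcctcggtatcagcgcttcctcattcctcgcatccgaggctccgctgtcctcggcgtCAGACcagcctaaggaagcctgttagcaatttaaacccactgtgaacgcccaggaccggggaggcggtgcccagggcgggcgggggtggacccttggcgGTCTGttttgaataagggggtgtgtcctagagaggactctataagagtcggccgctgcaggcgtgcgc
Of the 30 genes with a window, 10 had GGCGCC, a larger share than the 13.4% of all genes. The SMAD box was in 16 of the 30, near the 53.2% of all genes. What lies behind the share with GGCGCC was not tested. None of the windows of *Id2*, *Id3* and *Id4* held the RUNX core.

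*Tgfbi*, an extracellular matrix gene named for its induction by TGF-β, had 3.54 FPKM in KPR- and 3.29 FPKM in KPRrestored, a log2 difference of -0.10 with an interval of -0.41 to 0.19. The readouts of the TGF-β and BMP branches among the 42 genes differed among themselves. They are pooled here with no direction of response set for each gene. *Id2* was lower by more than the threshold, as was *Bambi* near the detection limit. *Smad6*, *Smad7* and *Id1* were lower by less than the threshold, and *Skil* and *Id3* were slightly higher.

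Further genes of the pathway were taken from 4 lists written for this purpose, with no direction of response set for a gene. Their shares stand beside those of all listed genes, 13.8% higher and 12.9% lower, and of all genes at a mean FPKM of 1 or more, 12.1% and 9.29%. Of 36 TGF-β target genes, 6 were higher (16.7%) and 11 were lower (30.6%) by 0.5 or more. Of the 28 that reached a mean FPKM of 1, 5 were higher (17.9%) and 7 were lower (25%), with a median log2 difference of -0.02. Of the 5, *Snai2* reached it only through the library in which it was higher. *Thbs1*, whose product thrombospondin 1 activates latent TGF-β, had 12.2 and 3.55 FPKM, and *Col1a1*, a collagen gene, had 12.2 and 4.21 FPKM, a log2 difference of -1.53. *Cdkn1a*, which encodes the cell cycle inhibitor p21, had 14.2 FPKM in KPR- and 39.6 FPKM in KPRrestored, a log2 difference of 1.48 with an interval of 1.34 to 1.63. *Snai2*, which encodes a repressor of epithelial genes, had 0.887 and 4.64 FPKM. The 8 fibroblast markers summed to 12.7 FPKM in KPR- and 5.35 FPKM in KPRrestored, most of it *Col1a1* itself. The other 7 summed to 0.536 and 1.14 FPKM, with *Dcn* at 0.173 and 0.742 FPKM and *Lum* and *Thy1* listed at 0 in both, and their part in the *Col1a1* value was not tested.

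Of 20 BMP target genes, 6 were higher (30%) and 5 were lower (25%). Of the 13 that reached a mean FPKM of 1, 3 were higher and 3 were lower (23.1% each), with a median log2 difference of -0.26. *Grem1* among the higher and *Alpl* among the lower genes reached it only through the library in which they had more, and without them 2 of 11 were higher and 2 were lower. *Atoh8*, a basic helix-loop-helix gene, had 14.2 and 6.02 FPKM, a log2 difference of -1.24 with an interval of -1.45 to -1.04. *Lfng*, which encodes a glycosyltransferase of Notch receptors, had 11.8 and 6.81 FPKM, a log2 difference of -0.79. *Cited2*, which encodes a transcriptional coregulator that binds p300, had 75.1 and 129 FPKM, a log2 difference of 0.78. *Grem1*, which encodes the secreted BMP antagonist gremlin 1, had 0.383 FPKM in KPR- and 3.27 FPKM in KPRrestored. Its log2 difference of 3.07, from about 33 and 288 fragments, had an interval of 2.56 to 3.65. At 3.27 FPKM its level was below that of *Fst*, the activin antagonist gene, at 25.8 FPKM.

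Of 38 other ligands and extracellular regulators, 7 were higher (18.4%) and 4 were lower (10.5%), 11 were listed at 0 in both libraries and 11 reached a mean FPKM of 1. Of the latter 11, 2 were higher and 0 were lower. The higher genes were *Grem1*, which reached this mean only through the library in which it was higher, and *Gdf15*, a distant TGF-β family member known as a stress-induced cytokine, which had 1.88 FPKM in KPR- and 28.0 FPKM in KPRrestored, a log2 difference of 3.89 with an interval of 3.49 to 4.31. *Gdf15* thus lay below *Bmp7* in KPR- and above it in KPRrestored. *Twsg1*, a secreted BMP modulator, had 31.8 and 24.1 FPKM, a log2 difference of -0.40, and *Amh*, the anti-Müllerian hormone gene, had 0.533 and 0.183 FPKM from about 17 and 6 fragments. Of 33 other receptors and intracellular regulators, 1 was higher (3.03%) and 3 were lower (9.09%), and of the 25 that reached a mean FPKM of 1, 1 was higher and 1 was lower (4.00% each). *Amhr2*, the type II receptor of anti-Müllerian hormone, had 1.50 and 2.25 FPKM. *Ldlrad4* and *Pmepa1*, related inhibitors that TGF-β induces, went from 3.90 to 2.37 FPKM and from 36.8 to 28.4 FPKM, log2 differences of -0.72 and -0.38. *Zfyve9*, the gene of the SMAD anchor SARA, had 5.36 and 7.25 FPKM, a log2 difference of 0.44.

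**Figure D4:**
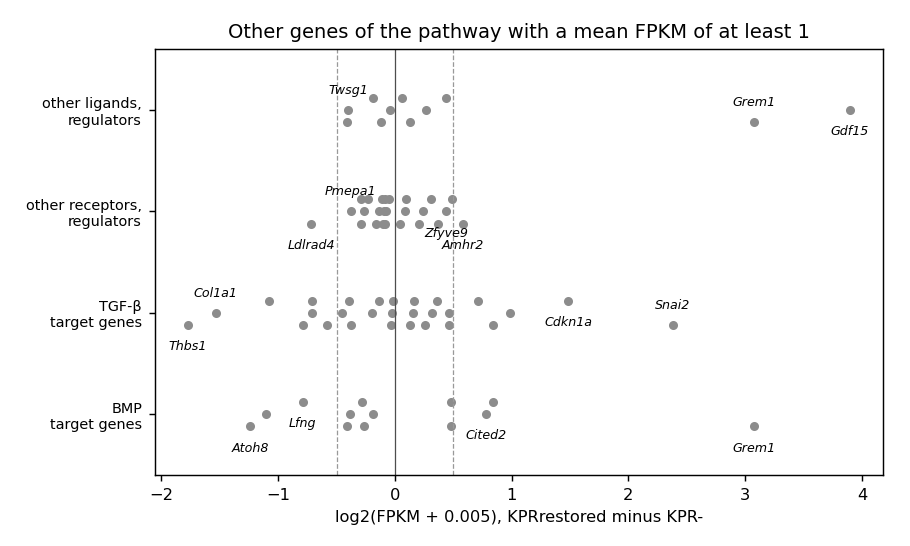
Difference of log2(FPKM + 0.005), KPRrestored minus KPR-, for the genes of the 4 further lists that reached a mean FPKM of 1, with 1 point per gene; dashed lines mark 0.5 either way, and *Grem1* is on 2 lists. *Gdf15* at 3.89 and *Grem1* at 3.07 lie far to the right, while *Thbs1* at -1.77 and *Col1a1* at -1.53 lie farthest to the left.

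Differences of all genes shifted with transcript length, which touches several of the receptors and latency genes. When genes at a mean FPKM of 1 or more were split into 10 parts by their longest transcript, the median log2 difference was 0.08 for the shortest and -0.19 for the longest part, which began at 6463 bases. Of the 42 genes, 17 belonged to the 2 longest parts, and 14 of these 17 had a difference below 0, against 12 of the other 25. The median of all genes in these 2 parts was itself below 0, at -0.09 and -0.19. The share of all genes below 0 in each part was not counted, so the 14 cannot be set apart from the shift with length. After the median of its length part was taken from each gene, *Ltbp1* had -0.71, *Ltbp2* -0.48 and *Tgfbr2* 0.02 on the log2 scale, so that *Ltbp2* no longer passed 0.5. *Smad5* went from -0.35 to -0.16, outside its counting interval. For *Id2*, *Bmp7*, *Smad1* and *Tgif1* the same step gave -1.45, -0.92, 0.59 and 0.89. Of the 42 genes, 4 changed sign, all of them receptors under the threshold.

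**Figure D5:**
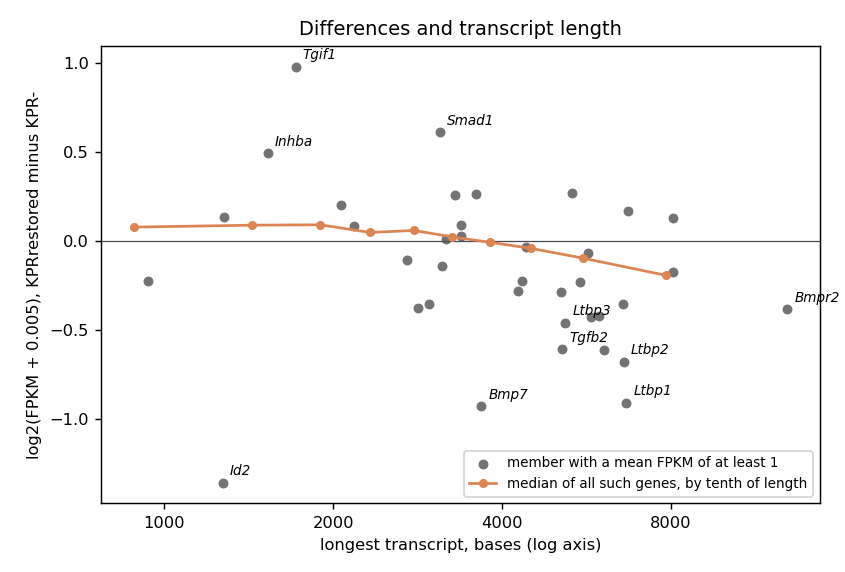
Difference of log2(FPKM + 0.005), KPRrestored minus KPR-, against the longest transcript in bases (log axis) for the 37 genes at a mean FPKM of 1 or more (gray), with the median of all genes at this level in 10 parts by length (orange). The orange line goes from 0.08 to -0.19, and *Id2*, *Bmp7*, *Ltbp1*, *Smad1* and *Tgif1* lie well away from it.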

How the data were processed

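Poly(A) RNA of 2 samples, 1 per condition, was sequenced as paired-end directional libraries. The authors trimmed the reads, mapped them with TopHat and let Cufflinks estimate the FPKM values that were deposited. The submitters' processing notes name mm10. Versions and the annotation are not given in the sources used here. Their methods also name a geometric normalization of read counts, and whether it entered the FPKM values is not stated. Whether FPKM of genes with several transcripts sums over transcripts is not stated.

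Differences were computed from the deposited FPKM values as log2(FPKM + 0.005), KPRrestored minus KPR-, which understates the change of low genes, with a threshold of 0.5 and no further scaling. Transcript lengths and positions were taken from GENCODE M21 (GRCm38), which matched 22779 of 23183 symbols. Depth was fitted to 593 and 607 genes with 1 transcript and 0.5 to 5.5 fragments, of which 78.6% and 80.6% lay within 0.1 of a whole number (20% by chance). Fragments were estimated for the longest transcript with a RefSeq counterpart. These estimates are high where shorter transcripts dominate, and intervals are then too narrow. The depth fit was tested on simulated libraries of known depth. The interval formula was tested on simulated whole counts, which leaves out errors in the estimated depth and transcript lengths.

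The 42 genes and the further lists were chosen with earlier results of these data known. All 42 are described, and from each further list the 2 genes with the most positive and the 2 with the most negative difference of log2(FPKM + 1) are named, beside *Runx3*. *Ltbp4* and *Smad9* were named as well, after the data had been seen, as further members of the LTBP and BMP SMAD families. *Grem1* is on 2 further lists, as are *Nog*, *Fstl3* and *Pmepa1*. Alternatives were other pseudocounts, scalings, filters, a threshold of 1 and shorter transcripts. Removal of the length trend and the motif search were added after the data had been seen. The work was done in Python 3.11.15 with scipy 1.17.1, pandas 2.3.3 and numpy 2.4.6, and plots were drawn with matplotlib 3.10.9.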

Additional observations from a re-analysis of the deposited data

How the results depend on the processing

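The median log2 difference of the pathway genes stayed between -0.16 and -0.22 under all alternatives run. The 3 scalings shifted all genes by at most -0.03 on the log2 scale and left the same 3 higher and 8 lower genes. With a pseudocount of 1, 4 genes were lower in place of 8, since *Bambi*, *Bmp2*, *Tgfb2* and *Tgfbr3* have low FPKM and a larger pseudocount shrinks their differences. *Bambi* then had -0.13. With a pseudocount of 0.1 or 1, *Eng* was no longer higher. With a threshold of 1, 0 were higher and 2 were lower, *Id2* and *Bambi*. With the length trend removed, 7 of the 8 lower genes stayed so, and the values of 15 genes left their counting intervals. With the shortest coding transcript, 8 intervals lay above 0 in place of 9 and 20 below 0.

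For the further lists, a pseudocount of 1 gave 2 higher and 0 lower other ligands and extracellular regulators (from 7 and 4), 0 higher and 1 lower other receptors and regulators (from 1 and 3), 7 lower TGF-β target genes (from 11) and 3 higher BMP target genes (from 6). Restriction to a mean FPKM of 1 or more gave 2 and 0, 1 lower, 7 lower, and 3 higher and 3 lower (from 5) BMP target genes in the same order. No paired analysis was possible because each condition has 1 library. The records list 1 μM 4-OHT for both libraries beside titles of 0 h and 16 h, so they do not settle whether exposure to 4-OHT differed. No other library of 4-OHT-treated cells without restoration was analysed here, so 4-OHT, where it differed, hours in culture and *Runx3* cannot be told apart.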
